A study of Homo sapiens with 6 samples.

Results

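The aldo-keto reductases are enzymes that use NADPH to reduce aldehydes and ketones to alcohols. RNA-seq of the human lung adenocarcinoma line A549 was examined for 10 of their genes: AKR1A1, AKR1B1, AKR1B10, AKR1B15, AKR1C1, AKR1C2, AKR1C3, AKR1C4, AKR7A2 and AKR7A3. The genes were chosen by symbol and by the family's high abundance in this line, so their levels are given as a description and support no test. They are 10 of the 60624 genes in the deposited table. Levels are in TPM, a measure of abundance corrected for how long a transcript is and set to the same sum in every library, so levels of different genes can be compared. With a minimum of 1 TPM on average over the 6 libraries, 8 of the 10 genes were tested among 14778 genes in all, while AKR1C4 and AKR7A3 were under the minimum. High abundance held for part of the family only, with 4 genes averaging above 1000 TPM in the control libraries and these 2 averaging below 1 TPM over all libraries.

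A549 cells of both groups were transfected for 3 days, per the labels, 3 samples with siRNA against CEP20 (siCEP20) and 3 with control siRNA (siCTR). CEP20 encodes a centrosomal protein, and the study asked which transcripts change when it is reduced. The labels and the methods differ: culture in F-12K, RNA from a column kit and a plasmid named as treatment in the former, and siRNA with RNAiMAX, DMEM and TRIzol in the latter. The methods list more than 1 CEP20 siRNA, and which of them these libraries received is not given in the sources used here. The methods speak in general of 3 independent experiments, and the labels do not say whether the 3 sequenced samples of a group were separate cultures. If they were not, the p-values measure a spread that is technical.

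Family members share a barrel-shaped fold and the NADPH cofactor and differ in the carbonyl compounds they accept. AKR1B enzymes reduce sugars, retinal and lipid aldehydes. AKR1C enzymes act as ketosteroid reductases and, in part, on prostaglandins, and AKR1A1 and the AKR7A enzymes clear reactive aldehydes. Several members, AKR1B10 and AKR1C1 to AKR1C3 among them, are known targets of the transcription factor NRF2, whose inhibitor KEAP1 is mutated in A549 cells.

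Facts that touch every value are few. CEP20 was at 29.2, 30.5 and 35.1 TPM in the siCTR libraries and at 16.2, 15.3 and 17.3 TPM in the siCEP20 libraries, a log2 fold change of -0.92 (SE 0.09, limma adjusted p = 0.000205), and the groups did not overlap. Fold changes here are siCEP20 against siCTR on the log2(TPM + 1) scale, which understates changes of low genes. Depth is unknown, since TPM carries no counts. Over every tested gene the median change was 0.13 and became 9.4e-05 when libraries were scaled by the median of ratios, a scaling that sets the typical gene to no change. The pseudogene MTATP8P1 took up 2.39% of the total TPM of siCTR-1 and 5.13% of that of siCEP20-1, was listed at 0 in the other 4 libraries, and rescaling without it changed no member's call. Lung epithelial keratins and adhesion genes, 6 in all, summed to 7029 to 7333 TPM in siCTR and 8474 to 8709 TPM in siCEP20. Markers of fibroblasts summed to 5.39 to 6.15 against 17.7 to 20.2 TPM, nearly all of it from COL1A1, a collagen gene called higher, while COL1A2 and DCN were at 0. Markers of leukocytes summed to 16.7 to 24.7 against 30.2 to 48.2 TPM, mostly from CD68, a lysosomal protein gene also called higher, while CD3E was at 0. The other markers of both lists, apart from CD79A (1.34 against 2.19 TPM), averaged below 1 TPM. Of 8 alveolar type 2 markers, 5 were below 1 TPM and SFTPA1 was at 0 (21.8 to 23.8 against 22.4 to 23.9 TPM summed). Endothelial markers summed to at most 0.125 TPM, and 4 hepatocyte markers to 9.07 to 16.9 against 0 to 15.0 TPM. The 0 is siCEP20-2, where all 4 hepatocyte markers were listed at 0, while ALB was at 9.89 TPM in siCEP20-1 and 11.5 TPM in siCEP20-3. The part of these markers in the results below was not tested.

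AKR1B1 was by far the most abundant member and fell to 51.5% of its control level after CEP20 knockdown. It encodes aldose reductase, the enzyme that turns glucose into sorbitol and that also reduces lipid aldehydes and makes prostaglandin F. Its transcript (ENSG00000085662, chromosome 7, 134442356 to 134459284 on the minus strand, hg38) was at 9839, 9988 and 9867 TPM in the siCTR libraries. After knockdown it was at 4923, 5139 and 5239 TPM. Every siCEP20 value was below every siCTR value, and the gap was many times the spread within either group. In bulk RNA, fewer cells with a transcript and less of it per cell cannot be told apart. The log2 fold change was -0.96 (SE 0.04, 95% interval -1.05 to -0.86, adjusted p = 1.53e-05). Set against the median tested gene it was -1.09. AKR1B1 ranked 3 or 4 by TPM among all genes of the deposited table in siCTR and 11 or 12 in siCEP20, with mitochondrial protein-coding genes listed at 0.

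AKR1B1 was the only member called, that is, past an adjusted p of 0.05 with a fold change above 1.5 or below 0.67. It was called lower as 1 of 8 tested members, where 4.61% of all tested genes were called lower, and no member was called higher, where 11.2% of all tested genes were. Calls depended on the scaling: without rescaling, 1659 genes were called higher and 682 lower, and with median-of-ratios scaling 894 and 1103. With that scaling AKR1A1, AKR1B1, AKR1C2 and AKR1C3 were called lower, against 7.46% of all tested genes, and again no member was called higher, against 6.05%. Without the fold change threshold, 6 of 8 tested members passed the test in the lower direction, beside 13.2% of all tested genes. In the higher direction 1 passed, beside 30.2%. Abundant genes passed in the lower direction more often, 30.8% of tested genes averaging at least 100 TPM. The share was 50.2% at 500 TPM or more and 59.0% at 1000 TPM or more. In 7 of the 8 tested members, every siCEP20 value lay below every siCTR value, which held for 17.0% of all tested genes. In 1 every value lay above, which held for 38.4%. The exact permutation test, two-sided, gave p = 0.1 for each of these 8 genes, the smallest value that 3 against 3 libraries allow.

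**Figure D1:**
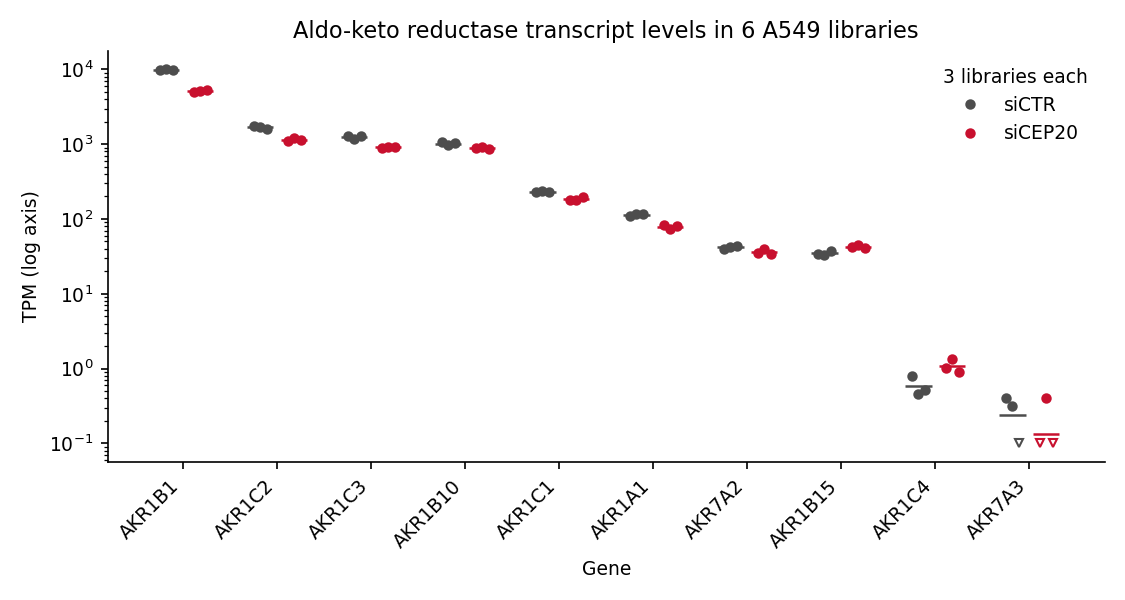
TPM (log axis) of the 10 aldo-keto reductase genes in the 3 siCTR (grey) and 3 siCEP20 (red) libraries. Points are libraries, bars are group means, and open triangles at the foot mark libraries listed at 0. AKR1B1 stands near 9898 TPM on average in siCTR and 5100 TPM in siCEP20, AKR1B15 is the tested gene with higher siCEP20 values, and AKR1C4 and AKR7A3 lie near or below 1 TPM.

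High level and a lower value after knockdown went together in the table as a whole. Among the 134 tested genes averaging at least 1000 TPM the median log2 fold change was -0.25, 67.9% were below zero and 21.6% were called lower. Among the 249 genes of at least 500 TPM the median was -0.17 and 16.5% were called lower. AKR1B1 had the eighth lowest log2 fold change among the 134. AKR1C2 and AKR1C3, the other members among the 134, lay at -0.55 and -0.47, and AKR1B10, which joined them among the 249, at -0.18. The part of the level in the members' changes was not tested.

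**Figure D2:**
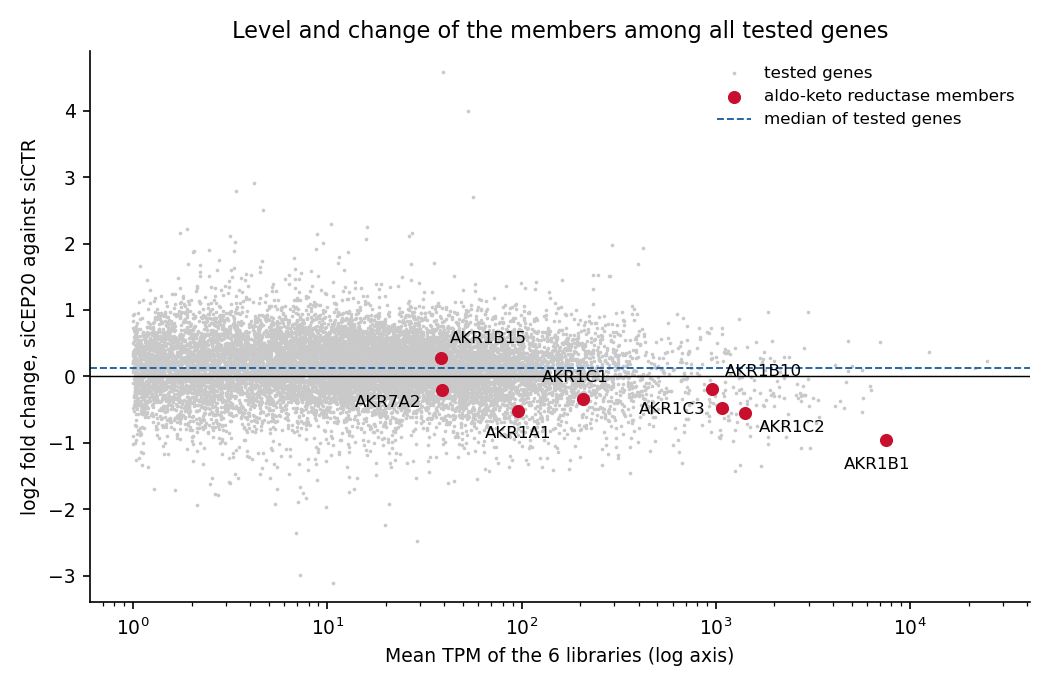
Log2 fold change (siCEP20 against siCTR) against mean TPM of the 6 libraries (log axis) for the 14778 tested genes (grey) and the 8 tested members (red, named). The dashed line is the median of all tested genes, 0.13, and every tested member except AKR1B15 lies below it and below zero.

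The 250 bases just before the start site of AKR1B1 are shown, because this gene carries most of the family's transcripts and most of its change. That start site is the reference transcript's and lies inside the gene span given above. The sequence is RefSeq's (GRCh38.p14, chr7:134459101-134459350, minus strand), read 5′ to 3′ towards the start site, with matches to a GC box (GGGCGG) and a CCAAT box (CCAAT) in capitals.
AKR1B1: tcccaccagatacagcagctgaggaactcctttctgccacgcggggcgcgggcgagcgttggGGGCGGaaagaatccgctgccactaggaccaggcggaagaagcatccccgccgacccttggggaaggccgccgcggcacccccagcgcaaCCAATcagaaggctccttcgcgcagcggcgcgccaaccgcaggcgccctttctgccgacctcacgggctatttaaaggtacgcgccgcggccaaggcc
The CCAAT match begins 98 bases before the start site and the GC box match 188 bases before it. No match to the core of the antioxidant response element, the NRF2 binding motif, written TGACNNNGC, was in this window. Both strands were searched, and of 27305 promoter windows of the same length 33.0% held CCAAT, 42.3% GGGCGG and 11.0% TGACNNNGC.

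AKR1B10 and AKR1B15 lie beside AKR1B1 on chromosome 7 and their differences lay on opposite sides of zero. AKR1B10 (ENSG00000198074, 134527567 to 134541412, plus strand) encodes a reductase of retinal and of aliphatic aldehydes, known for high levels in smokers' lung tumours. Its TPM was 1056, 981 and 1027 in siCTR and 895, 927 and 874 in siCEP20. The groups were close but did not overlap. The log2 fold change of -0.18 (SE 0.05, adjusted p = 0.0163) passed the test, but it no longer did without siCEP20-3 (-0.16, adjusted p = 0.0536). With quantile normalization it was -0.033 (adjusted p = 0.588).

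AKR1B15, the near copy of AKR1B10 that starts 7.7 kb further along, encodes an enzyme that reduces ketosteroids and other ketones. It was the sole tested member with higher values after knockdown. AKR1B15 (ENSG00000227471, 134549110 to 134579875, plus strand) was at 34.1, 33.4 and 36.8 TPM in siCTR and at 41.7, 44.4 and 41.2 TPM in siCEP20. Its groups did not overlap. The log2 fold change was 0.28 (SE 0.07, adjusted p = 0.0124). With median-of-ratios scaling it was 0.13 (adjusted p = 0.105) and did not pass, and it was 0.15 when set against the median tested gene. The TPM of both genes summed gave a log2 fold change of -0.17 (adjusted p = 0.0244). A common factor for all genes of a library, as in median-of-ratios scaling, does not alter the ratio of AKR1B15 to AKR1B10, but quantile normalization can. In the deposited TPM this ratio was 0.0323, 0.0341 and 0.0358 in siCTR and 0.0466, 0.0479 and 0.0471 in siCEP20. The ratio was higher in every siCEP20 library.

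Coding sequences of AKR1B10 and AKR1B15 were 86.4% identical over an alignment of 1033 columns, with 54 substitutions. Gaps made up 86 of these columns and count as differences in that share. A stretch of 60 coding bases with 11 differences is shown because such differences are what lets a read be given to one gene and not the other. Capitals mark bases that differ, and positions are counted from the first base of the coding sequence (GENCODE release 44), 878 to 937 in AKR1B10 and 962 to 1021 in AKR1B15.
AKR1B10: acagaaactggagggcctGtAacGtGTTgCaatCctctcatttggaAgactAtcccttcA
AKR1B15: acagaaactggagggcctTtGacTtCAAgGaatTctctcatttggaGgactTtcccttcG
Of all stretches of 75 bases in the reference transcript of AKR1B15, 4.59% also occurred exactly in AKR1B10, and of those of AKR1B10 7.31% occurred in another gene. No stretch of 150 bases was shared by either. AKR1B1 shared none of 75 bases with any other gene.

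The AKR1C genes, a cluster on chromosome 10, encode hydroxysteroid dehydrogenases. AKR1C1 inactivates progesterone, AKR1C2 inactivates dihydrotestosterone, AKR1C3 forms testosterone and prostaglandin F, and AKR1C4 is the liver's member of the cluster. The summed TPM of the 4 genes was 3244, 3143 and 3093 in siCTR and 2181, 2299 and 2225 in siCEP20. The groups were far apart, and siCEP20 libraries held 70.7% of the siCTR mean. AKR1C2 and AKR1C3 held most of the sum.

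AKR1C2 (ENSG00000151632, 4987775 to 5018031, minus strand) was the second most abundant member. It was at 1728, 1717 and 1572 TPM in siCTR and at 1111, 1196 and 1122 TPM in siCEP20. The lowest siCTR library, siCTR-3, was still far above the highest siCEP20 library. AKR1C2 fell by 0.55 on the log2 scale (SE 0.05, adjusted p = 0.000209), just short of the fold change for a call. It was called lower with median-of-ratios scaling (-0.70), with values corrected for length and GC content (-0.72), without siCEP20-2 and without siCTR-3. A lncRNA, ENSG00000224251, lies antisense to it at a mean of 15.0 TPM. Whether strand was used in the quantification is not given in the sources used here.

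AKR1C3 (ENSG00000196139, 5035354 to 5107686, plus strand) fell by 0.47 (SE 0.05, adjusted p = 0.000256). Its TPM was 1287, 1188 and 1289 in siCTR and 889, 923 and 907 in siCEP20. All siCEP20 libraries were close together and below all siCTR libraries. The ratio of AKR1C3 to AKR1C2 was 0.745, 0.692 and 0.820 in siCTR and 0.800, 0.772 and 0.808 in siCEP20, and its groups overlapped.

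AKR1C1 (ENSG00000187134, 4963253 to 4983283, plus strand) was at 229, 237 and 231 TPM in siCTR and at 180, 178 and 195 TPM in siCEP20. It fell by 0.33 (SE 0.05, adjusted p = 0.0019), with no overlap between groups. The ratio of AKR1C1 to AKR1C2 was 0.132, 0.138 and 0.147 in siCTR and 0.162, 0.149 and 0.173 in siCEP20. This ratio was higher in every siCEP20 library, though siCEP20-2 nearly met siCTR-3. Summed with AKR1C2, AKR1C1 gave 1957, 1954 and 1803 TPM in siCTR and 1291, 1374 and 1317 TPM in siCEP20, 69.7% of the siCTR mean.

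AKR1C4 (ENSG00000198610, 5195462 to 5218949, plus strand) was not tested. It was at 0.80, 0.46 and 0.51 TPM in siCTR and at 1.03, 1.33 and 0.90 TPM in siCEP20. These levels were low in both groups, and the siCEP20 values lay above the siCTR values.

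AKR1C1 and AKR1C2 are 4.49 kb apart on opposite strands, and their coding sequences were 98.0% identical, with 19 substitutions over 969 bases. The 60 bases at coding positions 103 to 162 hold 10 of them and are shown with the differing bases in capitals (GENCODE release 44), because differences are dense here and sparse elsewhere.
AKR1C1: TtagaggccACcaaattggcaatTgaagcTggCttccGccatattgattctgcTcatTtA
AKR1C2: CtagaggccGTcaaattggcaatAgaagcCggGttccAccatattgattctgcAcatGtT
Of the stretches of 75 bases in AKR1C2's transcript, 36.0% occurred exactly in another gene, mostly AKR1C1 (33.9%), and 17.2% of those of 150 bases did. For AKR1C1, whose reference transcript of 6543 bases is mostly not coding, the shares were 16.8% and 7.91%, and for AKR1C3 12.3% and 2.12%. The split of TPM between AKR1C1 and AKR1C2 is therefore uncertain.

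Windows before the start sites of the AKR1C genes that fell are shown to let their likeness be read. They are RefSeq's (GRCh38.p14), 250 bases ending just before the start site, at chr10:4963165-4963414 (plus strand) for AKR1C1, chr10:5003858-5004107 (minus strand) for AKR1C2 and chr10:5094164-5094413 (plus strand) for AKR1C3. Each start site is that of the reference transcript and lies inside the gene span given above. Capitals mark ATTGG, the CCAAT box on the opposite strand.
AKR1C1: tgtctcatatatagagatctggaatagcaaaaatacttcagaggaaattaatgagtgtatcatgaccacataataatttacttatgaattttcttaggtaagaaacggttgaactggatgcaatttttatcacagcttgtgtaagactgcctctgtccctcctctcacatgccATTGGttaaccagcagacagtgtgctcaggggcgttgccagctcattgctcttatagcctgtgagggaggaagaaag
AKR1C2: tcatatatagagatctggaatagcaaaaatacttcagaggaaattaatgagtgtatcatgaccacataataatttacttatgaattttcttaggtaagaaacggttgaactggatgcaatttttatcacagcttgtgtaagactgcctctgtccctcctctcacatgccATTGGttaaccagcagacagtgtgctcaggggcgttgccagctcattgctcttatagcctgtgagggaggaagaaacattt
AKR1C3: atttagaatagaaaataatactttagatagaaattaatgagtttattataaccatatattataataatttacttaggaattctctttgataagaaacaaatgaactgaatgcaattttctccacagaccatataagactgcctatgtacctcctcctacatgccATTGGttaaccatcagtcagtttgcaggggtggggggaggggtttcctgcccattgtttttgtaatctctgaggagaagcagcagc
AKR1C1 and AKR1C2 were 96.5% identical here, AKR1C2 and AKR1C3 70.9%, and AKR1C1 and AKR1C3 69.9%. The box begins 77, 81 and 86 bases before the start site in AKR1C1, AKR1C2 and AKR1C3. AKR1C4 had no CCAAT match and held a TATA box (TATAAA, in 11.1% of all windows) 29 bases before its start site. None of the 4 windows held TGACNNNGC, which says only that these letters are not in these windows.

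AKR1A1 and the AKR7A genes, on chromosome 1, were far less abundant. AKR1A1 (ENSG00000117448, 45550543 to 45570049, plus strand) encodes the aldehyde reductase found in most tissues. It was at 109, 115 and 116 TPM in siCTR and at 82.1, 73.7 and 80.2 TPM in siCEP20. The groups did not overlap, and siCEP20-2 was the lowest library. AKR1A1 fell by 0.52 (SE 0.06, adjusted p = 0.000492), which left 69.4% of the siCTR mean. Its transcript shared no stretch of 75 bases with another gene.

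AKR7A2 (ENSG00000053371, 19303965 to 19312144, minus strand) encodes a reductase of aflatoxin dialdehyde and succinic semialdehyde. It was at 40.1, 41.9 and 43.5 TPM in siCTR and at 35.0, 39.5 and 34.3 TPM in siCEP20, where siCEP20-2 came close to the lowest siCTR library. Its log2 fold change of -0.20 (SE 0.08, adjusted p = 0.0616) did not pass the test. It passed without siCEP20-2 (-0.27, adjusted p = 0.0347) and with median-of-ratios scaling (-0.35, adjusted p = 0.00296). AKR7A3, a related aflatoxin aldehyde reductase 15.2 kb away (ENSG00000162482, 19282573 to 19288770, minus strand), was at 0.40, 0.31 and 0 TPM in siCTR and at 0, 0.40 and 0 TPM in siCEP20. The values overlapped, and 20.2% of its stretches of 75 bases were shared with AKR7L.

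The window before the start site of AKR7A2 is shown because, of the windows searched, it alone held the antioxidant response element core. For each of the 8 members with a window, only the window nearest the start site of the reference transcript was searched. AKR1B1, AKR1C3 and AKR7A2 had 2 windows each. The window shown is RefSeq's (GRCh38.p14, chr1:19312145-19312394, minus strand), with matches to TGACNNNGC and GGGCGG on either strand in capitals.
AKR7A2: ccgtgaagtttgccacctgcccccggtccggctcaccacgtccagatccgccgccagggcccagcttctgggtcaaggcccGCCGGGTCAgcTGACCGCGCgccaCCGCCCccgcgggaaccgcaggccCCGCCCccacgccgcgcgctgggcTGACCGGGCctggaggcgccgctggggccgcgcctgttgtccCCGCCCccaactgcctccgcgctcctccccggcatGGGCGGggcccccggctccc
The core matched 3 times, beginning 169, 158 and 97 bases before the start site, and the GC box 4 times, beginning 145, 121, 55 and 20 bases before it, with no overlap between matches. Windows of AKR1A1 and AKR7A3 held 2 and 3 GC boxes and neither of the other motifs. AKR1B10 and AKR1B15 had no window in the table.

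The family as a whole held a smaller share of all TPM after CEP20 knockdown. All 10 genes together made up 1.43%, 1.43% and 1.42% of the TPM of siCTR-1 to siCTR-3, against 0.816%, 0.852% and 0.849% for siCEP20-1 to siCEP20-3. The siCEP20 mean was 58.8% of the siCTR mean, and 59.4% when shares were taken of protein-coding TPM alone. A common factor for all genes of a library does not alter a share. The family's summed TPM, scaled by the median of ratios, was in siCEP20 52.9% of that in siCTR. The mean of AKR1B1 differed by -4798 TPM between groups and that of the whole family by -5878 TPM. The other 9 genes summed to 4483, 4314 and 4316 TPM in siCTR and 3234, 3383 and 3254 TPM in siCEP20, 75.3% of the siCTR mean, and the groups did not overlap. No test was run on these sums, since the genes in them were chosen for their levels.

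**Figure D3:**
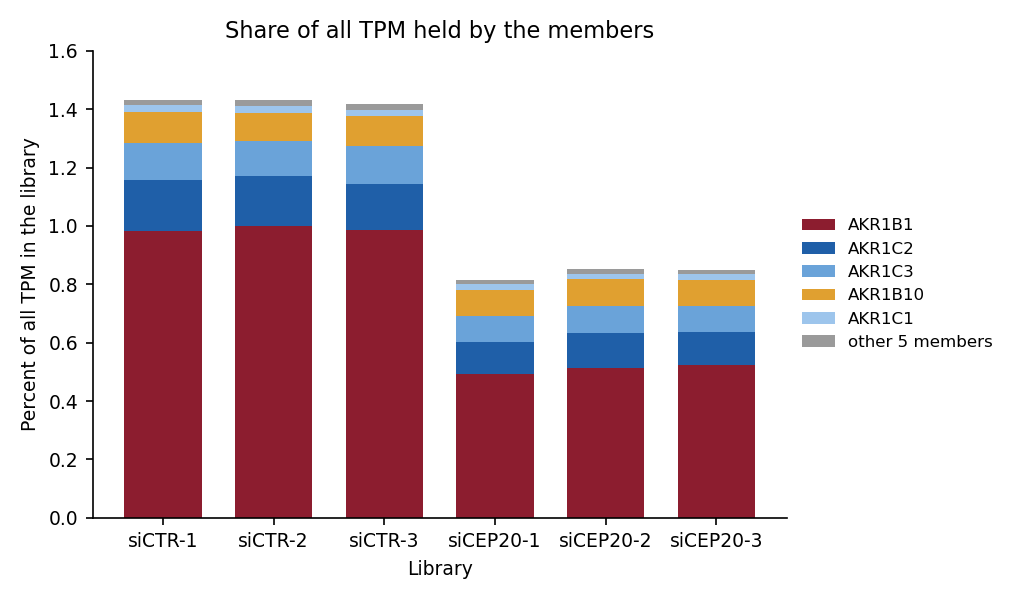
Percent of all TPM held by the 10 aldo-keto reductase genes in each library, stacked by gene. The siCTR bars stand at 1.42% to 1.43% and the siCEP20 bars at 0.816% to 0.852%, and most of the difference is in the AKR1B1 segment.

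Within the family, AKR1B1 held a smaller part in every siCEP20 library. The other members apart from AKR7A3 each held a larger part in every siCEP20 library, whether their own TPM was lower, as that of AKR1B10 was, or higher. AKR1B1 made up 68.7%, 69.8% and 69.6% of the family's TPM in siCTR and 60.4%, 60.3% and 61.7% in siCEP20. AKR1B10 made up 7.37%, 6.86% and 7.24% in siCTR and 11.0%, 10.9% and 10.3% in siCEP20. The ratio of AKR1B1 to AKR1B10 within a library was 9.32, 10.2 and 9.61 in siCTR and 5.50, 5.55 and 5.996 in siCEP20. AKR1B1 to AKR1C2 was 5.69, 5.82 and 6.27 in siCTR against 4.43, 4.30 and 4.67 in siCEP20. In neither ratio did the groups overlap, and neither is altered by a common factor for all genes of a library. Quantile normalization can alter both. AKR1A1 to AKR7A2 was 2.71, 2.75 and 2.67 against 2.35, 1.86 and 2.34, also without overlap.

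The order of levels in siCTR was AKR1B1, AKR1C2, AKR1C3, AKR1B10, AKR1C1, AKR1A1, AKR7A2, AKR1B15, AKR1C4 and AKR7A3, and no neighbours in this order overlapped over the 3 libraries. AKR1B1 was 5.92 times the next gene and AKR1B10 was 4.40 times the next. In siCEP20 the order was the same except that AKR1B15 stood above AKR7A2, at 42.4 ± 1.73 against 36.3 ± 2.85 TPM (mean ± SD, n = 3). AKR1C3 and AKR1B10 overlapped there, at 906 ± 17.3 and 898 ± 26.6 TPM.

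The members' median log2 fold change was -0.40 over the 8 tested, beside 0.13 over all tested genes, and -0.55 beside 9.4e-05 with median-of-ratios scaling. AKR1B10, AKR1B15 and AKR7A2 each crossed the test's threshold under some scaling. AKR1B1 ranged from -1.19 with quantile normalization to -0.93 without siCEP20-1 over all 16 alternatives that refitted it, and passed the test in each. Length of the reference transcript also moved with the change. The median was 0.04 for genes of 1302 to 1804 bases, as AKR1B1, AKR1B10, AKR1B15, AKR1A1 and AKR7A2 are. It was 0.24 for those of 5282 to 7047 bases, as AKR1C1 is. With a correction for length and GC content AKR1C1 was at -0.58 and AKR1B1 at -0.98. The correction used the length of the reference transcript, and which transcript of AKR1C1 these cells express was not tested.

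**Figure D4:**
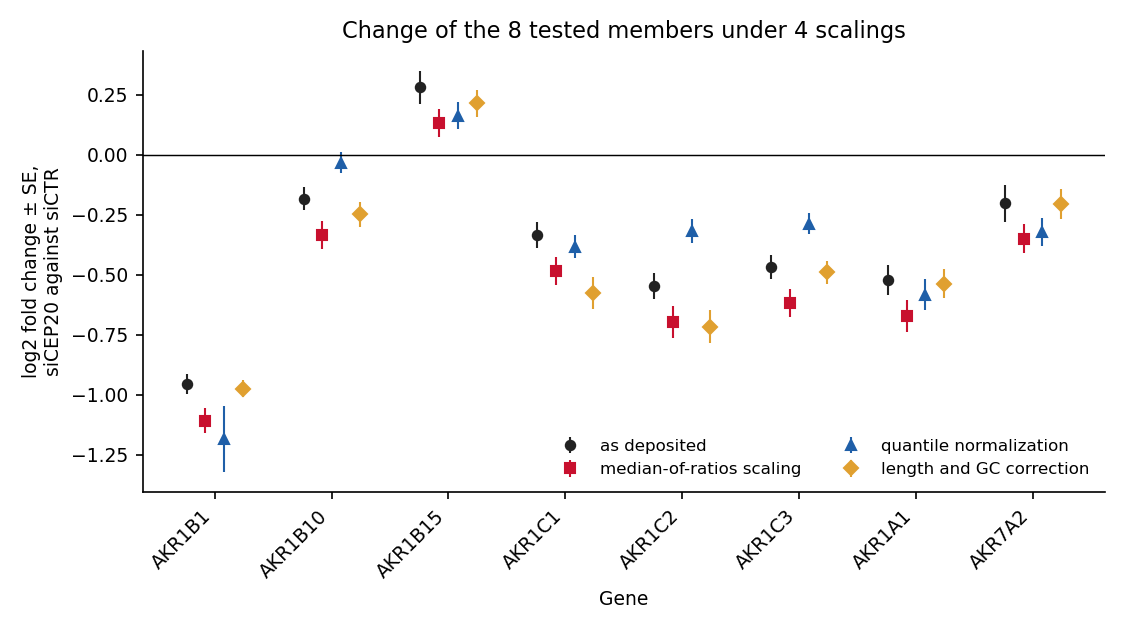
Log2 fold change (siCEP20 against siCTR, bars are SE) of the 8 tested members with TPM as deposited, median-of-ratios scaling, quantile normalization and values corrected for length and GC content. AKR1B1 lies between -1.19 and -0.96 in all of them, AKR1B10 between -0.34 and -0.033, and AKR1B15 between 0.13 and 0.28.

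Other genes of the superfamily were mostly low. Of the 13 listed genes with a row, 6 were tested, none passed in the higher direction, beside 30.2% of all tested genes, and 2 in the lower, beside 13.2%. Their median was -0.07 beside 0.13 over all tested genes, and -0.21 with median-of-ratios scaling. KCNAB2, a potassium channel beta subunit with the aldo-keto reductase fold, fell by 0.31 (adjusted p = 0.0112), from 18.8 ± 0.69 to 15.0 ± 0.53 TPM (mean ± SD, n = 3). AKR1C7P, a pseudogene, fell by 0.44 (adjusted p = 0.018), from 4.82 ± 0.39 to 3.28 ± 0.25 TPM. AKR1C5P (-1.07), AKR1E2 (0.18), KCNAB3 (0.29) and AKR1B10P1 (0.24) did not pass and their groups overlapped. AKR1D1, AKR7L, AKR1C8, AKR1C6P, AKR1B1P1, AKR7A2P1 and KCNAB1 were under the minimum level.

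Genes of the NRF2 system outside the family, its regulators as well as its targets, passed the test in both directions. All 36 genes of the list were tested, 13 passed in the higher and 9 in the lower direction, beside 30.2% and 13.2% of all tested genes, and the median was 0.02 (-0.13 with median-of-ratios scaling, where 4 passed higher and 16 lower). ALDH3A1, an aldehyde dehydrogenase, fell by 0.93 (adjusted p = 3.12e-05), from 1377 ± 67.0 to 724 ± 22.6 TPM. PRDX1, a peroxiredoxin, fell by 0.69 (adjusted p = 9.34e-05), and ABCC3, an exporter of conjugates, rose by 0.69 (adjusted p = 0.00017). NQO1, a quinone reductase often read as a marker of NRF2 activity, fell by 0.21 (adjusted p = 0.0055). NQO1 was named after its values were seen. NFE2L2, the gene of NRF2 itself, was at 66.9, 71.1 and 77.8 TPM in siCTR and 105, 111 and 115 TPM in siCEP20. It rose by 0.61 (adjusted p = 0.000417), with no overlap. KEAP1 was at 74.9, 75.05 and 67.8 TPM in siCTR and 67.3, 66.1 and 67.6 TPM in siCEP20 and did not pass (-0.11, adjusted p = 0.18), although its groups did not overlap. KEAP1 passed in the lower direction with median-of-ratios scaling (-0.26, adjusted p = 0.0247) and with the length and GC correction (-0.23, adjusted p = 0.0223).

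Other carbonyl and aldehyde reducing enzymes, mostly of the short-chain dehydrogenase family, had a median of -0.18. Of 23 tested, 3 passed in the higher and 9 in the lower direction, beside 30.2% and 13.2% of all tested genes. With median-of-ratios scaling 1 passed higher and 11 lower, and the median was -0.30. RDH10, which oxidises retinol to retinal, fell by 1.03 (adjusted p = 0.000175), from 21.0 ± 0.60 to 9.81 ± 1.23 TPM. TP53I3, a quinone oxidoreductase, fell by 0.54 (adjusted p = 0.000324), and DCXR, the xylulose reductase, by 0.51 (adjusted p = 0.000565).

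Genes that make or sense the members' steroid, prostaglandin and retinoid substrates passed the test in both directions, and their counts are again to be read beside 30.2% higher and 13.2% lower over all tested genes. Of 15 steroid genes tested, 4 passed higher and 3 lower (median 0.05), and with median-of-ratios scaling 4 higher and 6 lower (median -0.10). SULT2B1, a steroid sulfotransferase, rose by 0.60 (adjusted p = 0.000253), NR3C1, the glucocorticoid receptor, rose by 0.59 (adjusted p = 0.00148), and HSD17B10, a mitochondrial dehydrogenase, fell by 0.45 (adjusted p = 0.000517). Of 9 prostaglandin genes tested, 4 passed higher and 3 lower (median -0.06), and with median-of-ratios scaling 2 higher and 4 lower (median -0.21). PTGS2, the inducible cyclooxygenase that feeds prostaglandin synthesis, was at 110, 111 and 143 TPM in siCTR and 339, 354 and 349 TPM in siCEP20. It rose by 1.52 (adjusted p = 4.53e-05), while PLA2G4A, the phospholipase that releases arachidonic acid, rose by 0.67 (adjusted p = 0.000372), and PTGES, a prostaglandin E synthase, by 0.32 (adjusted p = 0.0037). With median-of-ratios scaling PTGES was at 0.17 (adjusted p = 0.0781) and did not pass. Of 13 retinoid genes tested, 4 passed higher and 4 lower (median 0.03), and the same counts held with median-of-ratios scaling (median -0.11). The receptors RARA and RARB rose by 0.99 and 0.78 (adjusted p = 6.29e-05 and 0.00131) and the carrier CRABP2 by 0.80 (adjusted p = 0.000494). Over the 6 lists, 102 genes were tested, of which 10 were called higher and 6 lower, close to the 11.2% and 4.61% of all tested genes.

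**Figure D5:**
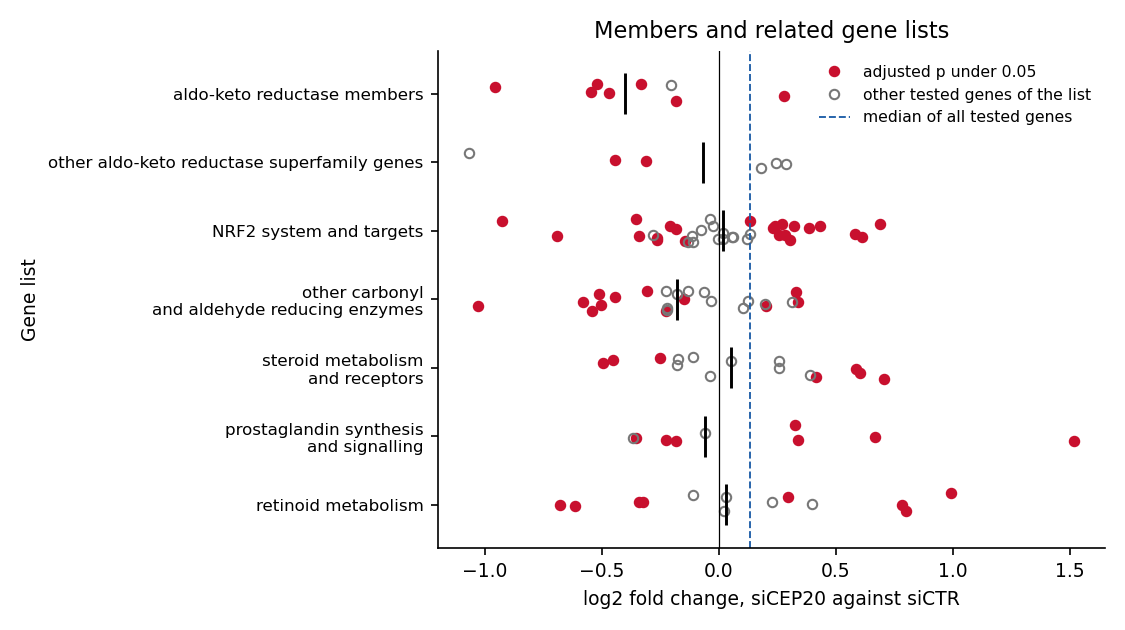
Log2 fold change (siCEP20 against siCTR) of each tested gene in the aldo-keto reductase members and 6 related lists, filled where the adjusted p is under 0.05. Thick bars are list medians, from -0.40 for the members to 0.05 for steroid genes, and the dashed line is the median of all tested genes, 0.13.

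Genes whose profile over the 6 libraries was most like that of AKR1B1 were sought among 8474 protein-coding genes of at least 10 TPM, by the root mean square difference of log2(TPM + 1) centred on each gene's mean. PHPT1, a histidine phosphatase, was closest (difference 0.03), then the ribosomal protein gene RPL9 (0.03), MMADHC of cobalamin metabolism (0.04), ALDH3A1 (0.04) and the ribosomal protein gene RPL31 (0.04). PHPT1 was at 490, 476 and 468 TPM in siCTR and at 244, 255 and 251 TPM in siCEP20. The log2 fold changes of these 5 genes lay between -0.99 and -0.93, beside -0.96 for AKR1B1, a closeness that the choice by profile largely fixes. AKR1B1 had both the highest mean TPM and the smallest adjusted p of the members, so likeness was measured for it alone.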

How the data were processed

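Poly(A) RNA-seq of 3 siCEP20 and 3 siCTR samples of A549 cells was analysed. The authors trimmed reads with fastp 0.20.1, aligned them to hg38 with HISAT2 2.1.0 and deposited StringTie 2.0 TPM for each Ensembl gene. The annotation release is not given in the sources used here. TPM holds no counts, so depth is unknown and precision rests on 3 replicates. The authors used a test on counts, which were not analysed here. Genes averaging 1 TPM or more were fitted on log2(TPM + 1), unscaled, by lmFit and trended eBayes of limma 3.58.1 (R 4.3.3), with Benjamini-Hochberg adjustment over all of them. Calls took an adjusted p under 0.05 with fold changes above 1.5 or below 0.67, as in the study. The fit was tested on simulated data. Names, positions, lengths and coding sequences came from GENCODE 44, and promoters from RefSeq's table, which held 8 of the 10 genes, each trimmed to 250 bases before the start site. Tables were made in Python 3.11.15 (pandas 2.3.3, numpy 2.4.6, scipy 1.17.1) and plots in matplotlib 3.10.9. The members and the 6 lists were chosen with earlier results of these data known. Named genes are all members, CEP20, NFE2L2, KEAP1, the superfamily list and the 3 genes of smallest adjusted p in each list, besides the 5 most like AKR1B1. Alternatives covered the pseudocount, the filter on TPM, scaling, the trend, a replicate block, length and GC content, protein-coding genes only, summed near copies, thresholds and leaving out each library, and, chosen after seeing the data, rescaling without MTATP8P1.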

Additional observations from a re-analysis of the deposited data

How the results depend on the processing

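AKR1B1, AKR1A1, AKR1C1, AKR1C2, AKR1C3 and CEP20 kept their direction and their side of the test's threshold in all 16 alternatives that refitted them. Genes called higher numbered 1659, and 894 with median-of-ratios scaling, 923 with quantile normalization, 896 with the length and GC correction, 4457 with no fold change threshold and 261 at a fold change of at least 2. Genes called lower numbered 682 of 14778 tested, and 1103 with median-of-ratios scaling and 1016 with quantile normalization. They numbered 883 of 14737 with the length and GC correction, 1944 with no fold change threshold and 147 at a fold change of at least 2. With each library left out in turn they numbered 613 to 706. Members called lower numbered 1, and 4 with median-of-ratios scaling, 2 with quantile normalization, 2 with the length and GC correction, 6 with no fold change threshold and 0 at a fold change of at least 2. Leaving out each library in turn gave 1 to 2, the second gene being AKR1C2. Members called higher numbered 0, and 1 with no fold change threshold. Over the lists, calls were 10 higher and 6 lower. Calls in the higher direction were 5 with median-of-ratios scaling, 5 with quantile normalization, 5 with the length and GC correction, 28 with no fold change threshold and 1 at a fold change of at least 2. Calls in the lower direction were 12, 10, 30 and 1 with median-of-ratios scaling, quantile normalization, no fold change threshold and a fold change of at least 2.

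AKR1B10 (-0.18) was no longer past the threshold with no filter on TPM (-0.18, adjusted p = 0.0554), with quantile normalization (-0.033, adjusted p = 0.588), with eBayes without a trend (-0.18, adjusted p = 0.0707) and without siCEP20-3, and ranged from -0.21 to -0.16 with 1 library left out. AKR1B15 (0.28) was not past it with median-of-ratios scaling (0.13, adjusted p = 0.105) or quantile normalization (0.16, adjusted p = 0.0516), and reversed to -0.17 (adjusted p = 0.0244) when summed with AKR1B10, a sum that AKR1B10 dominates. AKR7A2 (-0.20) was past it with median-of-ratios scaling (-0.35), quantile normalization (-0.32), the length and GC correction (-0.21, adjusted p = 0.0359) and without siCEP20-2, and ranged from -0.27 to -0.17 with 1 library left out. The family's share in siCEP20 was 58.8% of that in siCTR, and 59.4% as a share of protein-coding TPM. Its summed TPM, scaled by the median of ratios, was in siCEP20 52.9% of that in siCTR. Median-of-ratios scaling divided siCEP20 libraries by 1.03 to 1.08 and siCTR libraries by 0.906 to 0.984, which lowers every log2 fold change. Apart from this and the summed copies, the cause of the moves was not tested.

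Same-numbered libraries had correlations of 0.157, -0.06 and -0.06 of their deviations from the group means, and not every library correlated best with its own number, so the numbers were not taken to pair the samples. MTATP8P1, however, was above 0 in siCTR-1 and siCEP20-1 alone. Whether same-numbered libraries shared a preparation was not tested. With the replicate number as a block, 1654 genes were called higher and 694 lower, and AKR1B1 alone among the members.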
